A study of Mus musculus with 32 samples.

Results

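The clustered protocadherins are 57 genes of the cadherin superfamily, most of them for cell-surface proteins, that lie side by side on mouse chromosome 18. They were taken by symbol, as every entry of the count tables that begins with Pcdha, Pcdhb or Pcdhg and ends in a cluster number, out of 55291 symbols. By position and type they comprise 11 alpha genes, 22 beta genes, 12 gamma A genes, 7 gamma B genes and 5 C-type genes (Pcdhac1, Pcdhac2, Pcdhgc3, Pcdhgc4 and Pcdhgc5). Their levels were measured by RNA sequencing of polyadenylated RNA from whole brains of C57BL/6J mice. Brains were wild type (WT, Dhcr7+/+) or knocked out for Dhcr7 (KO, Dhcr7-/-), a model of Smith-Lemli-Opitz syndrome, in which the last enzyme of cholesterol synthesis is lost. Each genotype was sampled at embryonic stages E12.5, E14.5 and E16.5 (days after conception) and on the day of birth (PND0), with 4 libraries in each of the 8 groups. The labels name no litter, sex or dissection. They do not say whether the libraries of a group came from separate animals, so p-values measure the spread between these libraries. Sex-linked transcripts, given below, differed within every group, so no group came from a single animal.

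Most clustered protocadherins are homophilic recognition molecules, which bind the same isoform on a facing membrane. Most neurons switch on a small, largely random set of alpha, beta and gamma promoters, a choice that depends on the looping factors CTCF and cohesin and on DNA methylation, and the resulting surface identity lets branches of the same neuron recognise and avoid each other. The C-type genes sit at the ends of the alpha and gamma arrays and are used more uniformly. Pcdhac2 is the isoform on which serotonergic axons rely for tiling, and Pcdhgc4 is required for survival of developing interneurons.

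In the annotation (GENCODE M21 on build GRCm38) the clusters span chromosome 18 from 36930184 to 37841873, a stretch of 911.7 kb. The alpha array with Pcdhac1 and Pcdhac2 runs from 36930184 to 37187661, the beta array from 37264938 to 37524479, and the gamma array with its 3 C-type genes from 37661793 to 37841873. Each of the 22 beta genes is a single exon. Pcdhgb8 is annotated as a polymorphic pseudogene. In 35 alpha, gamma and C-type genes a private first exon, which encodes the extracellular part, is joined to 3′ exons shared by the whole array. A read within the shared exons cannot be assigned to 1 gene, and how the counting treated such reads is not given in the sources used here. Levels were therefore compared between genes as CPM (each gene's reads relative to all reads of its library, with TMM scaling) per kb of exon that no other gene covers.

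Some members cannot be read fairly from these tables. Nearly all of the first exon of Pcdha4 is covered by Gm42416 and the antisense gene Gm38225, which together leave 3 of 2503 bp unshared. All 2613 bp of the first exon of Pcdhga10 are covered by the antisense gene Gm26672. Both were near 0 in every library, with at most 0.68 CPM for Pcdha4 and 0.55 CPM for Pcdhga10. Antisense genes also cover 1927 bp of the first exon of Pcdhb12, 1559 bp of that of Pcdhgc3 and 1381 bp of that of Pcdhga11, and whether strand was used in counting is not given. The annotation holds 2 genes named Pcdha11, so this entry has no level per kb, and the tables have no entry Pcdha10.

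Library totals ran from 13.87 to 28.32 M counts, and the clustered protocadherins took 1942 to 15945 counts per library, or 0.014 to 0.0831% of the total. Where no read was counted, up to 3 counts remain possible, or 0.105 to 0.232 CPM by library, which covers counting error only. In every stage all 4 KO libraries lay below all 4 WT libraries for Dhcr7. Its mean level fell from 67 CPM in WT to 21.9 in KO at E12.5. The same comparison gave 69.2 and 13.1 CPM at E14.5, 62.4 and 17 CPM at E16.5, and 90.9 and 14.6 CPM in newborns. Each group held male libraries, with Y-linked Ddx3y, and female libraries, with Xist. At E12.5 the males were WT replicate 1 (Ddx3y 65 CPM) and KO replicates 2 and 4 (51.6 and 53.2 CPM). At E16.5 they were WT replicates 1 and 3 (46.4 and 42.7 CPM) and KO replicate 4 (50.6 CPM). Sex was therefore not balanced between genotypes at these stages, and the fits held no term for it. The library labelled E12.5 KO replicate 1 stood apart, with 5.64% of counts in the ribosomal RNA gene CT010467.1 and a summed clustered protocadherin level of 150 CPM, against 253 to 295 CPM in the other 3 KO libraries of that stage. Several results that rest on it are given with and without it.

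Among WT brains, averaged over the 4 stage means, Pcdhgc3 and Pcdhgc4 had the highest levels per unshared kb, at 25.4 and 13.8 CPM. Their order turned when length was taken over all exons of each gene (8.4 and 8.57 CPM per kb). Pcdhga11 (11.8 CPM per unshared kb) and Pcdhgb6 (10.7) followed. The third C-type gene in order was Pcdhac2 at 6.46 CPM per unshared kb, while Pcdhgc5 (1.46) and Pcdhac1 (0.80) lay within the range of the ordinary variable genes. The C-type label therefore joined the highest and some of the low members.

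The gamma A genes had a median level of 4.08 CPM per unshared kb, against 3.22 for gamma B, 2.61 for alpha and 1.08 for beta. Over all exons of each gene the medians were 2.21, 1.46, 1.21 and 1.05 CPM per kb, so the gap between alpha and beta depended on the length used. Within alpha, Pcdha12, the last gene of the array, was highest per unshared kb (3.41) and Pcdha8 lowest (0.274). An antisense gene covers 531 bp of the first exon of Pcdha12, and over all exons Pcdha3 (1.39 CPM per kb) and Pcdha5 (1.37) lay above it (1.24). Pcdha1, the first of the array, had 0.536 CPM per unshared kb. Within beta, Pcdhb20 was highest (3.73), followed by Pcdhb7 (3.6) and Pcdhb17 (3.32), and the last gene, Pcdhb22, had 2.18. The first, Pcdhb1, lay near 0, at no more than 0.132 CPM in any library. Within gamma A, Pcdhga11 was highest per unshared kb and the first gene, Pcdhga1, lowest (2.19), with the last, Pcdhga12, at 3.93. Over all exons Pcdhga3 (3.62 CPM per kb) lay above Pcdhga11 (3.12). Within gamma B, Pcdhgb6 was highest and the last gene, Pcdhgb8, lowest (1.11).

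Position along an array described little of this spread. Spearman's rho between order along the chromosome and level per unshared kb was 0.317 over 9 alpha genes, 0.133 over 22 beta genes, 0.0182 over 11 gamma A genes and -0.0714 over 7 gamma B genes. Genes of an array share their libraries and, in alpha and gamma, their 3′ exons, so these values are descriptions across genes.

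**Figure D1:**
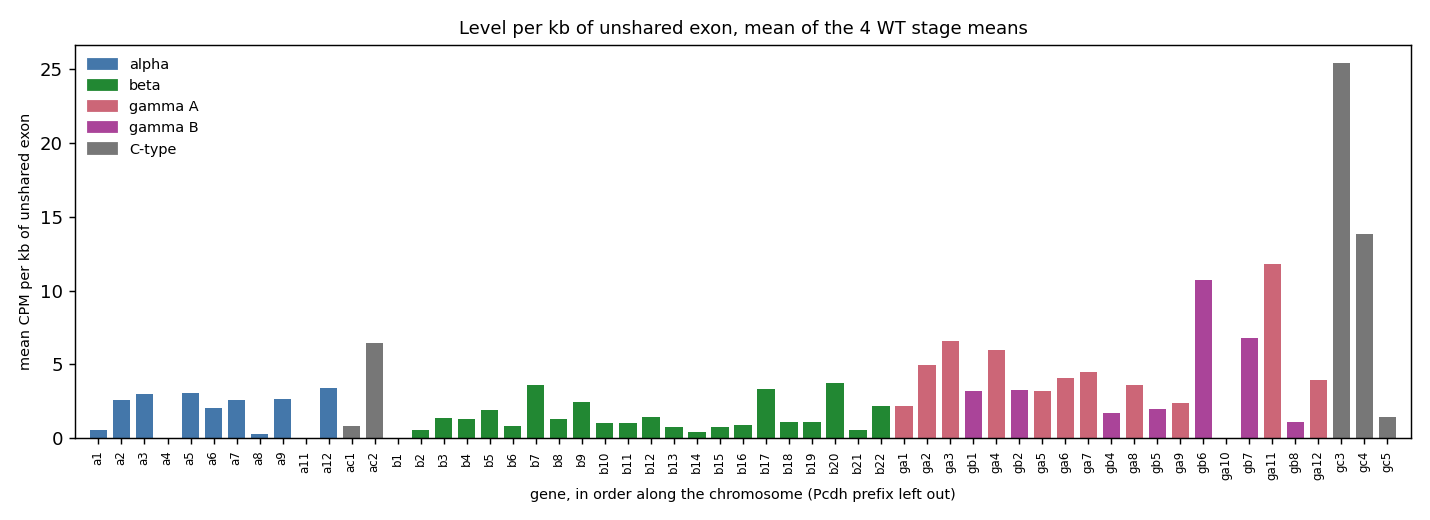
Mean level per kb of unshared exon in WT brains (y axis, CPM per kb, mean of the 4 stage means) for each gene in chromosome order (x axis), coloured by group. Pcdhgc3 (25.4) and Pcdhgc4 (13.8) stand highest, and Pcdha4, Pcdha11 and Pcdhga10 have no bar because less than 500 bp of their exon is unshared or the symbol names 2 genes.

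Over WT development the clustered protocadherins rose together in total but not in step. Their summed level was 261 ± 28.1 CPM in E12.5 libraries and 471 ± 11.6 CPM in those of E14.5 (mean ± SD, n = 4 for this and all group means below). It was 408 CPM at E16.5, with libraries from 396 to 428 CPM, and 835 ± 46.7 CPM at PND0. Of 57 members, 50 had their highest mean level at PND0. From E12.5 to PND0, 51 of 54 tested members rose and none fell (edgeR quasi-likelihood test, Benjamini-Hochberg adjusted p under 0.05), against 34.5% of all tested genes that rose and 70.9% that changed in either direction. The median log2 fold change of the tested members was 1.63, against -0.0467 over all genes. DESeq2 and the other settings are compared in the closing section. The members outside the 51 were Pcdhb21, Pcdhac1 and Pcdhgb8, and Pcdha4, Pcdhb1 and Pcdhga10 were not tested for low counts.

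The alpha genes rose most. Their summed WT level was 13.4 ± 5.85, 35.5 ± 2.57, 42.5 ± 3.77 and 103 ± 17 CPM over the 4 stages in order. All 10 tested alpha genes rose from E12.5 to PND0, with a median log2 fold change of 3.05. The share of alpha genes in all clustered protocadherin counts went from 5.03 ± 1.64% to 12.2 ± 1.36%.

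Gamma A and gamma B genes followed a zigzag. The summed gamma A level was 71.8 ± 7.38, 132 ± 4.21, 80.2 ± 5.72 and 206 ± 12.7 CPM over the stages. The summed gamma B level was 51.8 ± 0.867, 94.2 ± 3.73, 48.4 ± 3.18 and 105 ± 5.08 CPM at the same stages. In both groups the E16.5 libraries lay below every E14.5 and every PND0 library.

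The beta genes took a different course, with sums of 66.5 ± 9.76 CPM at E12.5 and 96.7 ± 6.93 CPM at E14.5, then 133 to 166 CPM at E16.5 and 193 ± 12.4 CPM at birth. Their share of the clustered protocadherin counts was highest at E16.5, at 35.7 ± 2.7%, against 20.5 ± 1.15% at E14.5 and 23.1 ± 0.324% at PND0. The gamma B share was 11.9 ± 0.735% at E16.5, down from 20 ± 0.805% in the E14.5 libraries. It was 12.6 ± 0.83% at PND0, where the libraries overlapped those of E16.5.

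**Figure D2:**
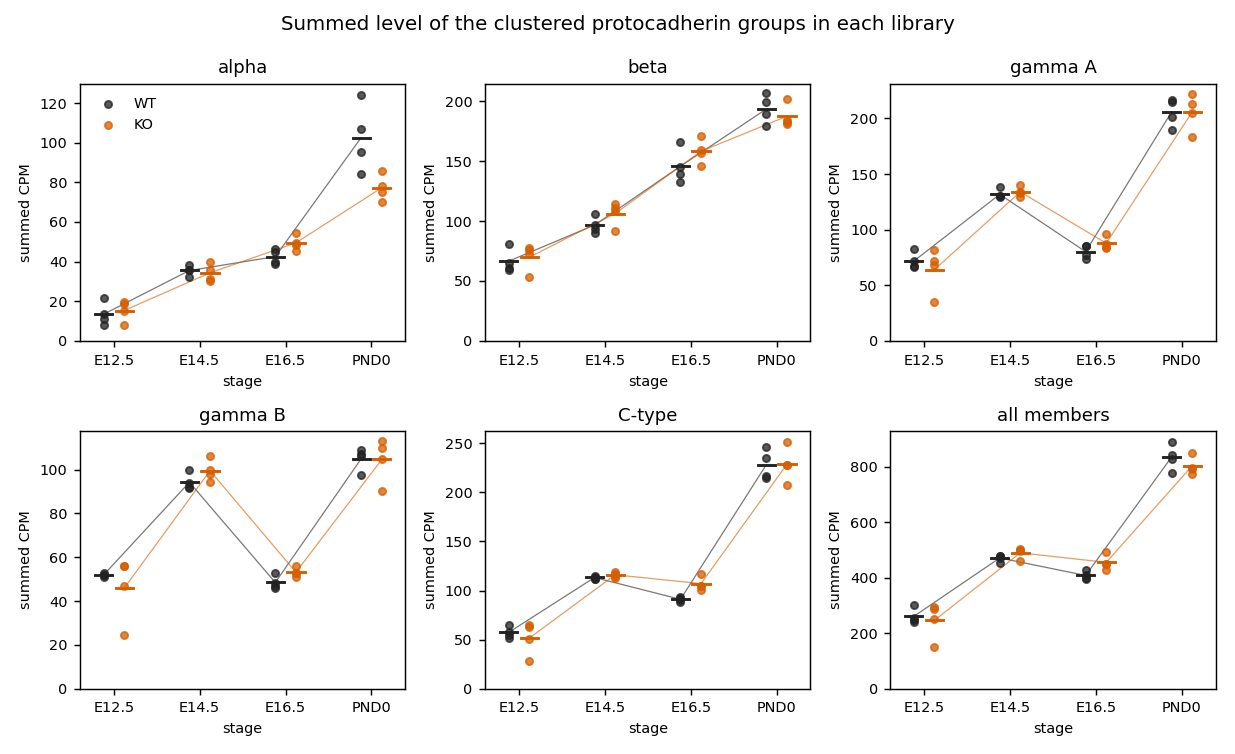
Summed CPM (y axis) of each group of clustered protocadherins by stage (x axis) in each library, WT in black and KO in orange, with a bar at the mean of 4 libraries. Gamma A and gamma B dip at E16.5 in both genotypes (WT means of 80.2 and 48.4 CPM), whereas alpha and beta do not.

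Between E12.5 and E14.5, 39 of 53 tested members rose in WT and none fell, against 57.8% of all genes that changed and 27.3% that rose. All 11 tested gamma A genes rose, with 6 of 7 gamma B, 8 of 9 alpha, 10 of 21 beta and 4 of 5 C-type genes. The largest increases were in alpha genes. Pcdha1 had 0.119, 0.0613, 0.346 and 0.0357 CPM at E12.5, at or near the counting floor, and 0.973, 0.84, 1.13 and 0.629 CPM at E14.5. Its fold change therefore rests on 10 counts in all at E12.5. Pcdha5 went from 0.895, 1.1, 2.31 and 1 CPM to 4.6, 4.37, 5.35 and 4.74 CPM, a log2 fold change of 1.84 (SE 0.271, edgeR adjusted p = 0.00028). Pcdha3 went from 2.03 ± 1.06 to 5.9 ± 0.728 CPM, a log2 fold change of 1.53 (SE 0.294, edgeR adjusted p = 0.00149). No library of the earlier stage reached the later one in these 3 genes. With the share of the ribosomal RNA gene as a covariate, 0 members and 0 of all genes passed for this step and for the whole interval. That share was 0.267 to 0.376% in WT at E12.5, 1.04 to 1.17% at E14.5 and 1.8 to 2.78% at PND0. The covariate therefore cannot be told apart from stage in these fits.

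Between E14.5 and E16.5 the arrays moved in opposite directions. In WT, 22 of 54 tested members rose and 17 fell, against 57.5% of all genes that changed (29.3% higher and 28.2% lower). The 22 comprised 17 beta genes, 4 alpha genes and Pcdhgc4. The 17 comprised 10 of 11 tested gamma A genes, 6 of 7 gamma B genes and Pcdhgc3. No tested beta or alpha gene fell and no gamma A or gamma B gene rose. The median log2 fold change was 0.73 for beta, 0.27 for alpha, -0.65 for gamma A and -0.98 for gamma B, against 0.00795 over all genes.

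Pcdhb21 showed the largest increase of this step. It had 1.37, 1.29, 1.9 and 0.881 CPM at E14.5 and 4.1, 4.14, 4.43 and 3.96 CPM at E16.5, a log2 fold change of 1.62 (SE 0.217, edgeR adjusted p = 9.67e-06). Pcdhb19 went from 4.59 ± 1.1 to 11.3 ± 1.53 CPM (log2 fold change 1.30, edgeR adjusted p = 4.58e-06), and Pcdhb16 from 2.95 ± 0.327 to 6.93 ± 0.98 CPM (1.23, 5.3e-06). These beta genes lie toward the gamma end of their array, but Pcdhb18, which lies between them, did not pass at this step. Change was not set against position.

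The largest decreases were in Pcdhga5, Pcdhgb7 and Pcdhgb2. Pcdhga5 had 11.5, 10.5, 10.9 and 9.57 CPM at E14.5 and 4.94, 4.78, 5.62 and 4.16 CPM at E16.5, a log2 fold change of -1.11 (SE 0.127, edgeR adjusted p = 1.78e-06). Pcdhgb7 went from 15.3 to 17.9 CPM (median 16.3) at E14.5 to a mean of 7.66 ± 0.569 CPM at E16.5 (log2 fold change -1.10, edgeR adjusted p = 2.69e-07). Pcdhgb2 went from 11.4 ± 1.11 to 5.42 ± 0.512 CPM (-1.07, 2.01e-06). In each of the 3 the E14.5 and E16.5 libraries did not overlap.

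**Figure D3:**
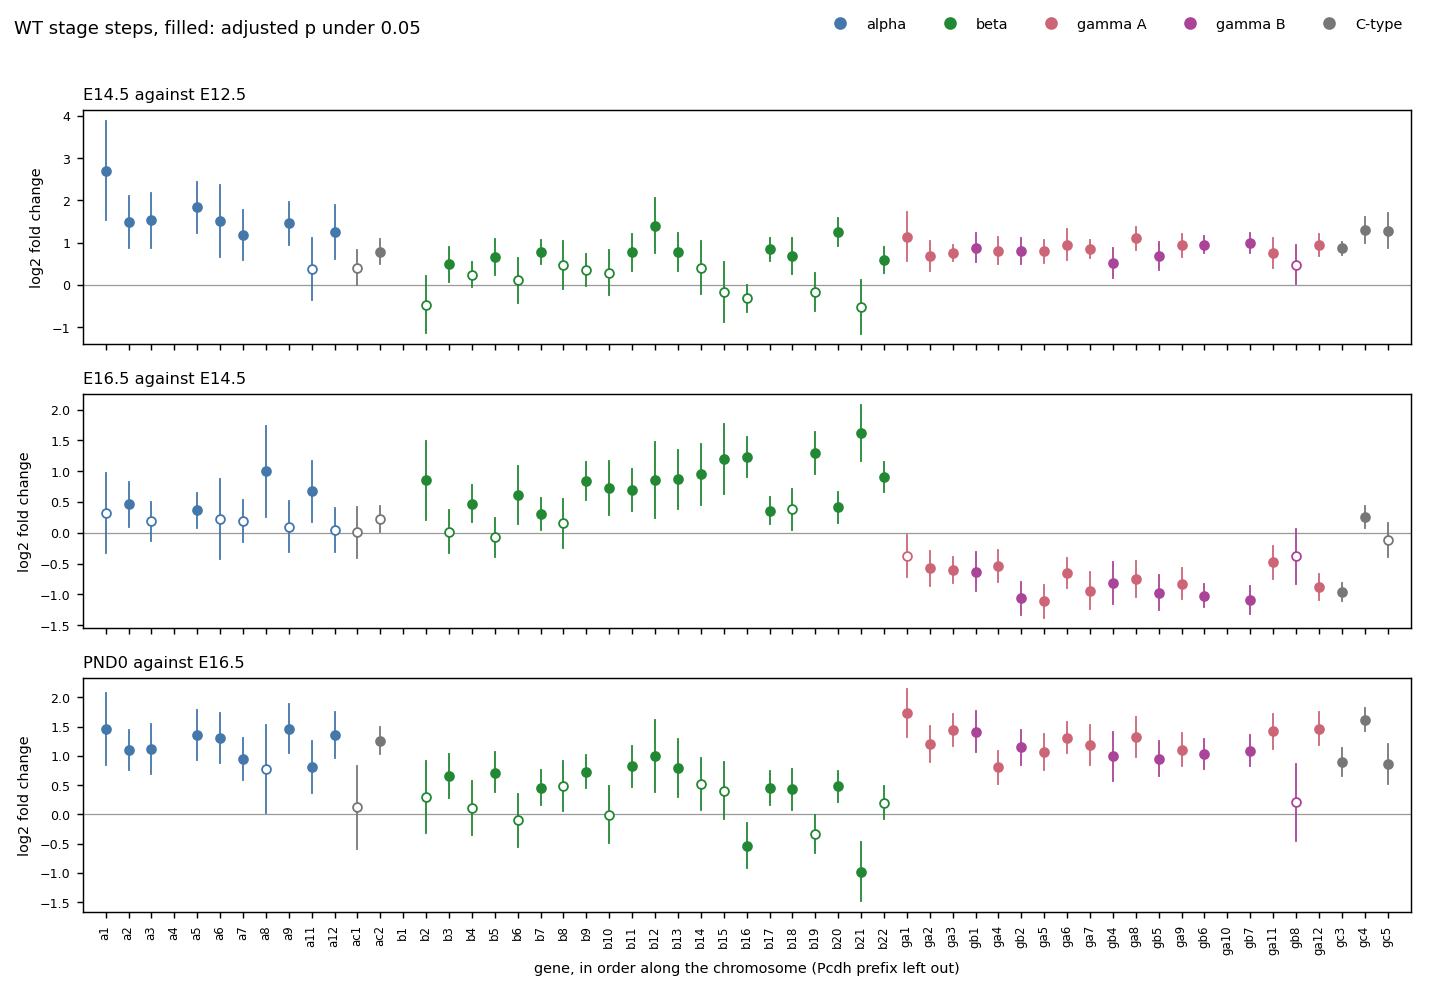
Log2 fold change (y axis) of each tested gene in chromosome order (x axis) for the 3 consecutive WT stage steps, with 95% intervals, filled where the adjusted p was under 0.05. In the middle panel beta genes (median 0.73) lie above 0 and gamma A and gamma B genes (medians -0.65 and -0.98) below it.

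The beta and gamma genes also differ in base composition and length, which bear on how reads are sampled. The longest transcript had a median GC content of 46% in beta genes, 47.3% in alpha, 52.6% in gamma A and 53.1% in gamma B. Over all genes, the log2 fold change of this step had a Spearman correlation of -0.172 with GC content and -0.131 with length. With offsets for GC content the step gave 15 beta genes higher, and 10 gamma A and 6 gamma B genes lower. With offsets for length it gave 18, 10 and 6.

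The KO libraries, which share no library with the WT ones, gave the same step a second time. In them 16 of 21 beta genes rose, while 10 of 11 gamma A and 7 of 7 gamma B genes fell. All 17 members that fell in WT also fell in KO, which is 100% of the WT list and 94.4% of the KO list. Of the members that rose, 18 were shared, 81.8% of the WT list and 72% of the KO list. How often the calls of all other genes repeated was not counted, and in WT 57.5% of all genes changed at this step. The overlap is therefore not shown to be particular to these members. Stage and the deposited table (1 per stage) cannot be told apart in either genotype.

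Between E16.5 and PND0, 40 of 54 tested members rose and 2 fell in WT, against 53.2% of all genes that changed (26.0% higher). All 11 tested gamma A genes, 6 of 7 gamma B, 9 of 10 alpha, 10 of 21 beta and 4 of 5 C-type genes rose. Pcdhga1 had 4.16, 4.26, 4.13 and 3.07 CPM at E16.5 and 17.2, 10.5, 15.8 and 10.7 CPM at PND0, a log2 fold change of 1.73 (SE 0.195, edgeR adjusted p = 5.32e-06). Pcdhga12 went from 9.72 ± 0.435 to 28 ± 5.1 CPM (1.47, edgeR adjusted p = 8.4e-07). The 2 that fell were beta genes that had risen in the step before. Pcdhb21 fell by 0.98 on the log2 scale, from 4.16 ± 0.195 to 2.2 ± 0.643 CPM, and Pcdhb16 fell by 0.54, from 6.93 ± 0.98 to 4.96 ± 0.837 CPM (edgeR adjusted p = 0.00325 and 0.0216). The call for Pcdhb16 held in 13 of 17 other settings, with an adjusted p of 0.0785 without E16.5 WT replicate 2.

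Taking the 3 steps in order, 17 members rose, fell and rose again, and 16 of these were gamma A or gamma B genes, with Pcdhgc3 the other one. A further 9 rose at every step: 6 beta genes, 2 alpha genes and Pcdhgc4. Another 12 rose at the outer steps without passing the test between E14.5 and E16.5. In 7 beta genes the step from E14.5 to E16.5 was the only one that passed. How many of all genes followed each pattern was not counted. At the 3 steps 57.8%, 57.5% and 53.2% of all genes changed, so the patterns are not shown to be particular to these members. Across the whole interval Pcdha1, Pcdha5 and Pcdhb12 had the largest increases, with log2 fold changes of 4.53, 3.62 and 3.31. Pcdhb12 went from 0.339 ± 0.0917 to 3.39 ± 0.842 CPM.

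The C-type genes did not share 1 course. Pcdhgc4 had 9.55, 10.4, 16.2 and 12.3 CPM at E12.5, then 28.7 to 32.6 CPM at the next stage, 30.9 to 40.6 CPM after that, and 103 to 120 CPM at PND0. Its log2 fold change over the whole interval was 3.23 (SE 0.144, edgeR adjusted p = 3.43e-08), and it rose at each step. With the ribosomal RNA share as a covariate, which cannot be told apart from stage here, the log2 fold change of its first step was -0.0859. Its middle step passed in 14 of 17 other settings, with an edgeR adjusted p of 0.22 with all 32 libraries in 1 fit. Pcdhgc3, its neighbour, had means of 33, 60.6, 31 and 60.2 CPM, the zigzag of the gamma A and gamma B genes, with a log2 fold change of -0.96 between E14.5 and E16.5 (SE 0.0709, edgeR adjusted p = 1.83e-08). Pcdhgc5 went through 2.68, 6.63, 6.07 and 11.5 CPM and passed at the first and last step.

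Pcdhac2 rose between E12.5 and E14.5, from 7.97 ± 1.37 to 13.9 ± 1.28 CPM, and between E16.5 and PND0, from 16.2 ± 1.48 to 40.3 ± 4.12 CPM. Its middle step had a log2 fold change of 0.23 (edgeR adjusted p = 0.064). Pcdhac1 stayed between 1.27 and 4.31 CPM in all WT libraries, and none of its steps passed the test. Its log2 fold change over the whole interval was 0.60 (95% interval -0.2 to 1.4).

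**Figure D4:**
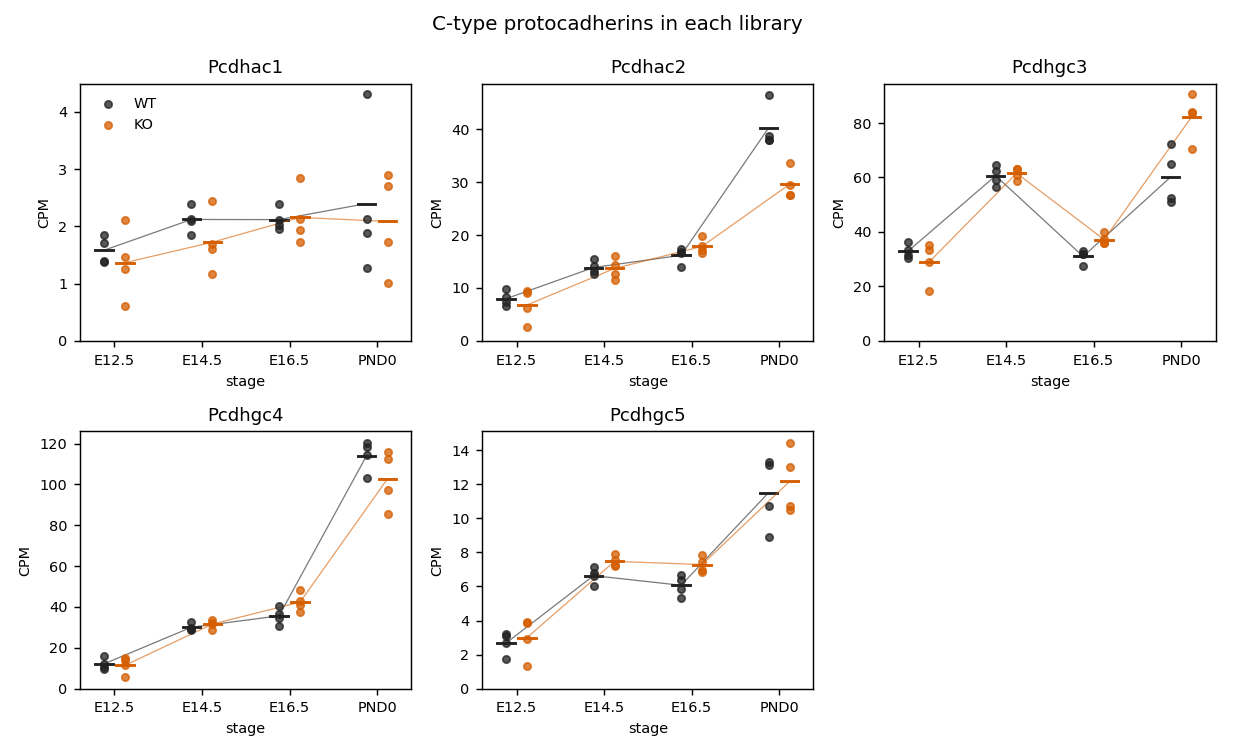
Level in CPM (y axis) of the 5 C-type genes by stage (x axis) in each library, WT in black and KO in orange, with a bar at the mean of 4 libraries. Pcdhgc4 reaches 103 to 120 CPM in WT at PND0, and at that stage the KO libraries of Pcdhac2 (27.6 to 33.6 CPM) lie below all WT libraries (37.9 to 46.4 CPM).

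Cell composition moved with stage. The summed level of 10 neuron markers went from 2881.3 to 4835.2 CPM in the E12.5 WT libraries to 6613.8 to 7554.0 CPM at PND0, and that of 10 neural progenitor markers from 2970.2 to 3643.0 CPM to 1024.8 to 1078.2 CPM. No marker of these lists was at 0 in all libraries of a group. Other lists moved too. From E12.5 to PND0 in WT, mean summed levels went from 2192.7 to 606 CPM for meninges markers and from 4714.2 to 230 CPM for blood markers. Those of astrocyte markers went from 388 to 748 CPM. The part of all these markers in the stage changes was not tested. In whole-brain RNA, fewer cells of a type and less RNA per cell cannot be told apart.

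Between genotypes no clustered protocadherin passed the test at any stage. With edgeR's quasi-likelihood test, 0 of 51 tested members were past an adjusted p of 0.05 in E12.5 brains, and 0 of 54 at each of the other stages. Over all tested genes the share past the threshold was 0.0177%, 0.527%, 0.0462% and 1.44% at these stages. At an unadjusted p under 0.05 the members numbered 0, 6, 7 and 8, against 4.70%, 8.73%, 11.5% and 18.0% of all genes. DESeq2 called 0, 0, 0 and 2 members. For genotype the shares over all genes are those of the main edgeR fits, and none is given for DESeq2 or the other settings. The median log2 fold change of the tested members was -0.0847, 0.0621, 0.129 and -0.0703, against medians over all genes between -0.00058 and 0.00311.

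**Figure D5:**
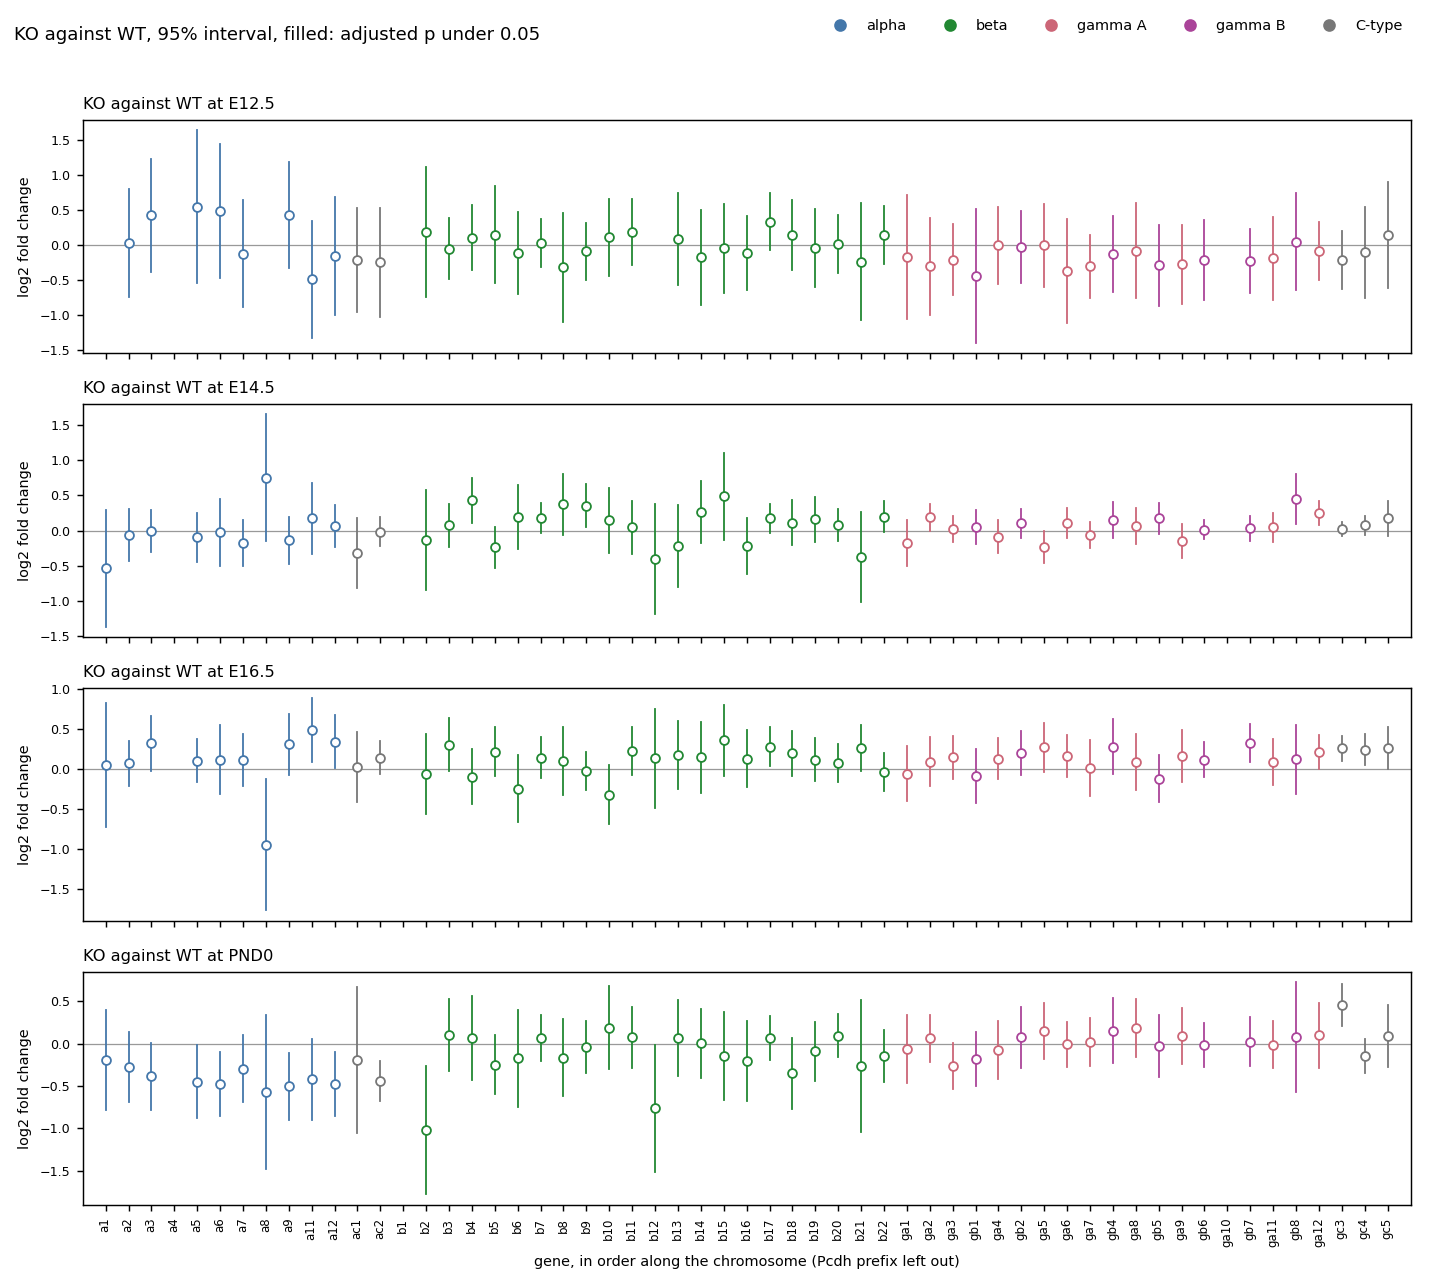
Log2 fold change of KO against WT (y axis) for each tested gene in chromosome order (x axis) at each stage, with 95% intervals. No point is filled, since no member had an adjusted p under 0.05, and the 10 tested alpha genes at PND0 lie below 0 (median -0.43).

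At E12.5, Pcdhb17 (log2 fold change 0.34), Pcdhga7 and Pcdha11 had the smallest p, with edgeR adjusted p no lower than 0.875 for any member. In the comparison 32 of 51 members were lower in KO, and 8598 of 16948 genes overall were higher. Without KO replicate 1 the count turned, with 35 of 51 members higher, a median of 0.055 and a smallest edgeR adjusted p of 0.561. With all libraries the C-type genes had intervals that reached from -1.02 to 0.904 on the log2 scale, so this stage bounds their change only loosely. Their median log2 fold change was -0.209 with KO replicate 1 and 0.0109 without it. The gamma A median was -0.19 with it and -0.00109 without it.

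At E14.5 the intervals were narrowest. Pcdhgc3 had 60.6 ± 3.64 CPM in WT and 61.5 ± 2.05 in KO, a log2 fold change of 0.02 with a 95% interval from -0.0759 to 0.124. Pcdhgc4 had 30 ± 1.81 and 31.6 ± 2.11 CPM (interval -0.0609 to 0.208), and Pcdhac2 13.9 ± 1.28 and 13.7 ± 1.99 CPM (interval -0.223 to 0.186). The smallest p were those of Pcdhga12 (log2 fold change 0.25, edgeR adjusted p = 0.28), Pcdhb4 (0.43, 0.354) and Pcdhgb8 (0.45, 0.388). Pcdhgc5 was the only member whose KO libraries (7.19 to 7.91 CPM) all lay above the WT libraries (6.02 to 7.13 CPM), where 4.80% of all genes did not overlap.

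At E16.5, 44 of 54 tested members had a positive log2 fold change, against 8670 of 17328 genes. The groups did not overlap in 6 members, all higher in KO, against 6.43% of all genes in either direction: Pcdhb3, Pcdhb21, Pcdhgb7, Pcdhga12, Pcdhgc3 and Pcdhgc5. Pcdhgc3 had 31.9, 27.5, 32.9 and 31.8 CPM in WT and 35.8, 37.3, 39.8 and 35.8 CPM in KO, a log2 fold change of 0.26 (SE 0.0721, edgeR adjusted p = 0.281). Pcdhgb7 had 7.66 ± 0.569 and 9.64 ± 0.739 CPM (0.32, edgeR adjusted p = 0.325), Pcdha11 a log2 fold change of 0.49 (0.358) and Pcdhgc4 0.24 (0.362). Over all genes the genotype difference at this stage correlated with GC content (Spearman 0.321) and length (0.204), properties in which the arrays differ. WT replicate 1 had 3.75% of counts in the ribosomal RNA gene, against 0.356 to 0.626% in the other libraries of this stage. Without it the edgeR adjusted p was 0.259 for Pcdhgb7 and 0.232 for Pcdha11. With any single library left out, 0 members passed. The counts of positive and of non-overlapping members are not given without it.

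At PND0 the alpha genes lay lower in KO, with the beta, gamma A and gamma B medians near 0, and no member passed. The difference between arrays was not tested. All 10 tested alpha genes had lower means in KO, with log2 fold changes from -0.57 to -0.19 and a median of -0.43. Over all genes 8692 of 17420 were higher and the median was -0.00058. The summed alpha level was 107, 95.1, 124 and 84.2 CPM in WT and 78.2, 85.5, 70.3 and 75.2 CPM in KO, so that 1 KO library lay above the lowest WT library. WT replicate 3 was the highest: without it the median alpha log2 fold change was -0.28, still with 10 of 10 below 0. Pcdha9 (11.7 to 17.9 CPM in WT, 10.2 ± 2.33 CPM in KO, edgeR adjusted p = 0.164), Pcdha6 (0.168), Pcdha12 (0.172) and Pcdha5 (0.264) had an unadjusted p under 0.05. The medians of beta (-0.0911), gamma A (0.0172) and gamma B (0.0211) lay near 0. The longest transcript had a median of 5338 nt in alpha genes, 3714 nt in beta, 4728.5 nt in gamma A and 4670 nt in gamma B, against 3183 nt over all tested genes. Over all genes the difference at PND0 correlated with length at -0.338. With length offsets the alpha median was -0.32 and 10 of 10 remained below 0. The alpha genes share their libraries and 3′ exons, so the 10 are not independent and their common direction is a description.

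Pcdhac2, at the end of the alpha array, was the member with the smallest p at PND0. Its level was 38, 37.9, 46.4 and 38.7 CPM in WT and 29.5, 33.6, 27.7 and 27.6 CPM in KO, with every KO library below every WT library. The log2 fold change was -0.44 (SE 0.11, 95% interval -0.676 to -0.209) and edgeR's adjusted p was 0.057, just over the threshold. The adjusted p was 0.00965 with DESeq2 and 0.0173 in edgeR without a filter on low counts. It was over 0.05 in the other 14 settings, up to 0.724 with the ribosomal RNA share as a covariate. That share was 1.16 to 2.09% in KO and 1.8 to 2.78% in WT libraries of PND0, so the covariate follows genotype in part. Groups without overlap were found in 3 members at this stage (Pcdhac2, Pcdha6 and Pcdhb2, all lower in KO), against 11.7% of all genes. For Pcdhb2 the nearest libraries of the groups both had 1.549 CPM, apart only beyond these digits.

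Summed levels of marker lists for other cells and regions were compared at PND0. The summed level of 6 serotonergic markers was 28.3 to 82.6 CPM in PND0 WT and 13 to 50.2 CPM in KO. All 6 had a negative log2 fold change (median -0.547), and none of them passed the test (smallest edgeR adjusted p 0.503). The summed level of 11 hindbrain and spinal cord markers was 1.45 to 8.27 CPM in WT and 0.24 to 0.528 CPM in KO, with 5 of the markers at 0 in all 4 WT libraries and 10 in all 4 KO libraries, the Hox genes among them. Choroid plexus markers (6 genes) summed to 333 to 627 CPM in WT and 623 to 1010.5 CPM in KO, and none of them passed. Blood markers (7 genes) summed to 200 to 267 CPM in WT and 234 to 2293.1 CPM in KO, with 1 of them at 0 in all 4 KO libraries. All 5 tested blood markers had a positive log2 fold change (median 1.98), 4 had an unadjusted p under 0.05, and the smallest edgeR adjusted p was 0.208. Of the hindbrain and spinal cord list only Slc6a5, the glycine transporter of inhibitory neurons, had enough counts to be tested, and it fell by 3.14 on the log2 scale (edgeR adjusted p = 0.012). At E14.5 all 6 serotonergic markers were negative too (median -0.187) and 1 passed (edgeR adjusted p = 0.0257), against 0.527% of all genes. Their sum at that stage was 61.5 to 67.7 CPM in WT and 56.8 to 60.2 CPM in KO. Mean Pcdhac2 was 13.9 and 13.7 CPM there. Within E16.5 WT the serotonergic sum ranged from 10.7 to 67.1 CPM. The part of the marker lists in the Pcdhac2 and alpha values was not tested.

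Pcdhgc3 moved the other way. Its level at PND0 was 51, 72.2, 52.4 and 65.1 CPM in WT and 70.6, 84.1, 90.8 and 83.6 CPM in KO, where the lowest KO library lay below the highest WT library. The log2 fold change was 0.45 (SE 0.116, 95% interval 0.206 to 0.7) with an edgeR adjusted p of 0.0635. It passed in 5 settings, with adjusted p of 0.0117 in DESeq2, 0.000395 in edgeR without a filter, 0.0243 with all 32 libraries in 1 fit, 0.0353 with a replicate block and 0.0406 without WT replicate 2. Pcdhgc4 had 114 ± 7.74 and 103 ± 14 CPM (interval -0.351 to 0.0568), and Pcdhgc5 and Pcdhac1 had adjusted p of 0.852 and 0.853. Pcdhb2, a beta gene of low level, had 2.31 ± 0.573 CPM in WT and 1.13 ± 0.366 in KO (log2 fold change -1.02, edgeR adjusted p = 0.144).

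Averaged over the 4 stages, 0 of 54 tested members passed in edgeR's quasi-likelihood test, against 0.558% of all genes, and 2 had an unadjusted p under 0.05, against 12.4% of all genes. These were Pcdhb17 (log2 fold change 0.22, edgeR adjusted p = 0.144) and Pcdhgc3 (0.14, 0.347), followed by Pcdhb11, Pcdhb7 (0.11) and Pcdhgc5 (0.17). Without E12.5 KO replicate 1 both of the first 2 passed, with adjusted p of 0.04 and 0.0475 and log2 fold changes of 0.25 and 0.18. A test of whether the KO effect differed between stages passed for 0 of 54 members, against 0.0256% of all genes. In it 4 members had an unadjusted p under 0.05, against 13.5% of all genes, with the smallest for Pcdhgc3 (edgeR adjusted p = 0.22), then Pcdha9 and Pcdha11. Without E12.5 KO replicate 1 the adjusted p was 0.0672 for Pcdhgc3, 0.111 for Pcdha9 and 0.114 for Pcdhac2.

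Genes that act with the clustered protocadherins were counted from lists. Of 12 non-clustered protocadherins, related recognition proteins encoded elsewhere, none passed between genotypes before birth, and 3 fell at PND0, where 1.44% of all genes passed. Their median transcript length was 7377.5 nt, and the correlation of the PND0 difference with length is given above. Pcdh18 fell from 48.5 ± 7.15 to 31.3 ± 4.68 CPM (log2 fold change -0.63, edgeR adjusted p = 0.027), Pcdh17 from 138 ± 14.2 to 102 ± 8.86 (-0.44, 0.027) and Pcdh10 from 230 ± 5.96 to 187 ± 8.22 (-0.30, 0.0394). The median over the 12 was -0.28, with 11 below 0. Of 11 CTCF and cohesin genes, which loop enhancers to the chosen promoters, Mau2 of the cohesin loader fell at PND0 (-0.39, 0.0392) and the median was -0.00193. Of 13 genes of DNA methylation and heterochromatin, which silence the promoters not chosen, the methyltransferase gene Dnmt3a (-0.56, 0.0117) and the demethylation gene Tet3 (-0.47, 0.0213) fell. Of 16 other settings the call held in 4 for Pcdh10, 6 for Pcdh17, 8 for Mau2, 11 for Pcdh18 and Tet3, and 14 for Dnmt3a.

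Of 15 signalling partners of the cytoplasmic domains, Cyfip2, a subunit of the WAVE complex that drives actin branching, fell at PND0 (log2 fold change -0.44, edgeR adjusted p = 0.00631). None of 7 shedding proteases passed. None of 13 tested genes beside or between the clusters passed. The smallest unadjusted p was that of Ik at E16.5 (log2 fold change -0.20, edgeR adjusted p = 0.24), and the smallest edgeR adjusted p was 0.111, at PND0. Over the stages 0, 2, 6 and 4 of the 13 had an unadjusted p under 0.05, against 4.70%, 8.73%, 11.5% and 18.0% of all genes. With the ribosomal RNA share as a covariate none of the 7 genes that fell passed at PND0, with edgeR adjusted p from 0.544 to 0.724. That covariate follows genotype in part at this stage, as given above. In WT from E12.5 to PND0, 10 of 12 non-clustered protocadherins rose (median 1.52), while 10 of 11 CTCF and cohesin genes fell (median -0.83) and 9 of 13 methylation and heterochromatin genes fell (median -0.30), where 70.9% of all genes changed and 34.5% rose.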

How the data were processed

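The authors deposited raw counts per gene symbol, 1 table per stage, for 32 libraries. Per the submitters' processing notes, HISAT2, SAMtools, featureCounts and DESeq2 were used with build mm10. Their versions and settings are not given in the sources used here. No column of other samples was present (0). The members and lists were chosen with earlier results of these data known.

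Each comparison was fitted on all genes of its groups with edgeR 4.0.16 (limma 3.58.1, R 4.3.3): TMM scaling, filterByExpr (minimum count 10, minimum total 15), robust quasi-likelihood F test, and Benjamini-Hochberg adjustment over the genes tested in that fit (threshold 0.05). The averaged and interaction tests used all 32 libraries. DESeq2 1.42.0 was an alternative. The fits were tested on simulated data. A positive log2 fold change means higher in KO, or at the later stage. Positions came from GENCODE M21. Levels per kb needed at least 500 bp of unshared exon. Length and GC offsets were splines with 5 degrees of freedom. Of the symbols, 53292 matched the annotation by name.

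Named were the C-type genes, the smallest p (or, in WT steps, the 3 largest changes past the threshold in each direction), the highest, lowest, first and last gene of each array, and listed genes past the threshold or with their list's smallest p. One gene that this rule names is not reported here. Pcdha6, Pcdhb3 and the other members named for a count were chosen after their values were seen. Libraries of a group were not copies of each other: for 48 pairs the chi-square per degree of freedom ran from 2.9 to 114.7.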

Additional observations from a re-analysis of the deposited data

Results flagged for a closer look

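A library was singled out where its gap to the nearest of the 4 libraries of its group took up most of the group's range (Dixon's test). Chance does this in about 1 in 20 groups. Among 34 named members and 6 sums in 8 groups it happened in 25 of 320 cases, or 7.81%.

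At E12.5, WT replicate 3 was high for Pcdha5 (2.31 CPM, nearest 1.1) and Pcdhb7 (7.96, nearest 5.97). KO replicate 1, the library with most ribosomal RNA, was low for Pcdha12 (1.003 CPM, nearest 2.105) and Pcdhb19 (2.86, nearest 5.71), and it was the only one of its group with counts for Pcdhb1 (0.0772 CPM, under the counting floor). At E14.5, WT replicate 1 was low for Pcdha12 (4.02) and high for the gamma A sum (138, nearest 130), and WT replicate 4 was low for Pcdhb20 (9.44). In E14.5 KO, replicate 3 was high for Pcdhb12 (1.34) and Pcdhgb2 (14.4), and replicate 4 for Pcdhb2 (1.45).

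At E16.5, WT replicate 2 was low for Pcdha12 (3.8) and high for Pcdha3 (8.4) and Pcdhb17 (20.7). WT replicate 3 was low for Pcdha5 (5.92, nearest 6.14) and Pcdhb22 (14.4), and WT replicate 4 for Pcdhga1 (3.07). In KO, replicate 1 was high for Pcdhb4 (6.66) and Pcdhb1 (0.0537, under the floor), and replicate 4 low for Pcdhb22 (14.49). At PND0, WT replicate 3 was high for Pcdhac2 (46.4, nearest 38.7), and KO replicate 3 was low for Pcdhgb2 (8.95) and high for the beta sum (202). Pcdhb1 had counts in 1 WT and 1 KO library only (0.129 and 0.132 CPM, under the floor).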

How the results depend on the processing

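Every comparison was refitted with other size factors (RLE), without the low-count filter, with DESeq2, and with each library left out in turn, and with a replicate block, length offsets, a ribosomal RNA covariate and, for single steps, all 32 libraries in 1 fit. GC offsets and the use of KO libraries for the stage steps were added after seeing the data. The count of members past the threshold held within 1.5 times in 202 of 210 refits. Most of these refits were of genotype tests, where the main count was 0 and only another 0 was taken as held. The ratio therefore applies to the WT steps alone. The exceptions follow. For KO against WT at PND0 it was 1 with all 32 libraries in 1 fit, 2 without a filter, 2 with DESeq2, 1 with the replicate block, and 0 to 1 with a library left out (1 without WT replicate 2). For the averaged KO effect it was 0 to 2 with a library left out. With the ribosomal RNA covariate it was 0 for E14.5 against E12.5 and 0 for PND0 against E12.5 in WT. In the first of these steps Pcdhgc4, Pcdhgc5 and Pcdha3 turned to -0.0859, -1.51 and -0.53. The ribosomal RNA share of the E12.5 WT libraries did not overlap that of E14.5 or PND0, so this covariate cannot be told apart from stage. The cause was not tested. The WT steps gave 37 to 40, 32 to 40 and 40 to 44 members with a library left out, and 49 to 51 over the whole interval. The same replicate numbers did not pair the libraries: correlations of deviations ran from -0.22 to 0.32, and no comparison had all pairs over 0.1. The replicate block changed no call beyond Pcdhgc3 at PND0. The biological coefficient of variation, 19.9, 6.25, 9.99 and 16.6% over the stages, limits what each genotype comparison can resolve, and members under about 1 CPM rest on few counts.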
